A study of Danio rerio with 6 samples.

Results

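Genes of the cilium and of the motors that walk on microtubules were compared between *dusp2/dusp6* double mutant and wildtype zebrafish embryos at 18hpf. They were chosen by name alone, as every entry of the gene table whose symbol starts as those of intraflagellar transport (IFT) proteins, the BBSome, axonemal dyneins and their assembly factors, tektins, radial spoke proteins, transition zone proteins, Arl13 proteins, cytoplasmic dyneins and kinesins do. This took in 113 of 23150 genes, 70 of them genes of the cilium and 43 of them motors of the cell body and the spindle. The name rule itself uses no measured value, although it was chosen with earlier results of these data known.

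RNA-seq had been carried out on 3 libraries from mutant and 3 from wildtype embryos, each made from polyA RNA of pooled whole embryos freed of chorion and yolk. The mutant embryos were dusp2um287/um287;dusp6um286/um286, homozygous at both loci, and came from parents that were homozygous for both alleles. The wildtype embryos were dusp2+/+;dusp6+/+. Genotype and parentage therefore cannot be told apart, and a whole-embryo library cannot separate fewer cells of a type from less RNA per cell. The authors reported that many embryos of this cross die before gastrulation ends. Mutant embryos taken at 18hpf were therefore survivors, and this selection cannot be told apart from genotype either. Dusp2 and Dusp6 are dual-specificity phosphatases that remove phosphate from Erk kinases and so damp signaling by fibroblast growth factors.

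A cilium is an extension of the cell surface built on a microtubule core, the axoneme. Its parts are carried out from the cell body by kinesin-2 and back by cytoplasmic dynein 2, both coupled to trains of IFT particles, while the BBSome carries membrane proteins and the transition zone gates the base. Motile cilia also carry dynein arms and radial spokes that make them beat, and at this stage zebrafish bear them in the floor plate, the pronephric ducts and the otic vesicle, among other sites.

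Expected counts summed to between 37989443 and 44657980 in mutant libraries and between 36310355 and 45161306 in wildtype libraries. The 113 genes took 0.328 to 0.335% of the counts in mutant libraries and 0.330 to 0.332% in wildtype libraries. The labels do not say whether the libraries of a genotype came from separate pools, so p-values measure the spread between libraries, which may be technical. Levels are given as CPM, counts scaled to a common library size, after TMM normalization, which sets a factor per library from all genes, and listed in the order mutant A, C and D and wildtype A, B and C, after the letters of the count columns. The targeted gene *dusp6* stood at 28.5, 32.4 and 32.4 CPM in mutant libraries, against 212, 222 and 229 CPM in wildtype libraries. The *dusp2* entry held 3, 7 and 7 counts in mutant libraries, against 51, 35 and 71 counts in wildtype libraries. Both genes were thus low in every library labelled mutant. Mutant D stood apart from the other mutant libraries, since the chi-square over all tested genes, divided by its degrees of freedom, was 12.8 to 15.5 in pairs with them, against 3.62 to 5.57 in the other pairs of the same genotype. Its markers of muscle summed to 499 CPM, against 937 and 949.8 CPM in the other mutant libraries and 1077 to 1175 CPM in wildtype libraries. The sum was thus below wildtype in every mutant library, and lowest in mutant D.

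Of the 113 genes, 108 passed the filter on low counts and were tested. In the mutant 15 were higher and 15 lower than in wildtype at an adjusted p under 0.05 (quasi-likelihood test of edgeR, Benjamini-Hochberg adjusted over the 20021 genes tested, n = 3 libraries each), which is 13.9% in each direction. Over all genes tested 17.4% were higher and 17.1% lower, 34.5% in all, so that the 27.8% called here was no more than the background. Among the genes of the cilium 9 were higher and 8 lower of 68 tested, and among the motors of the cell body and spindle 6 were higher and 7 lower of 40. Without mutant D, 14 were higher and 13 lower. The mutant libraries all lay outside the wildtype range for 55 of the 108, which is 50.9%, against 49.1% of all genes tested. Of these, 29 lay above and 26 below, against 24.3% above and 24.8% below among all genes. All 30 called genes were among the 55.

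The differences were small. The median log2 fold change of the 108 genes was 0.05, against -0.00 over all genes tested, and the quartiles lay at -0.15 and 0.15, against -0.22 and 0.20 over all genes. In all, 102 of the 108 moved by under 1.5-fold, and 11 of the 30 called genes by under 1.2-fold. An adjusted p under 0.05 together with a fold change over 2 was reached by 1 higher gene, *dnai1*, and 1 lower gene, *arl13a*, while over all genes tested 2.54% were higher and 2.42% lower by that rule, 4.95% in all. Of the 78 genes that were not called, 73 had a 95% interval that stayed within 2-fold in either direction and 60 within 1.5-fold. The 5 with wider intervals all averaged under 1 CPM in both genotypes, so that at this depth a 2-fold difference could be missed in them. The 108 genes were spread over the range of levels, and when all tested genes were divided by mean CPM into 5 bins of equal size, from low to high, 3 of 13, 2 of 21, 12 of 36, 5 of 16 and 8 of 22 were called. The share of all genes called in those bins was 18.4, 28.4, 37, 41.6 and 46.8%.

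**Figure D1:**
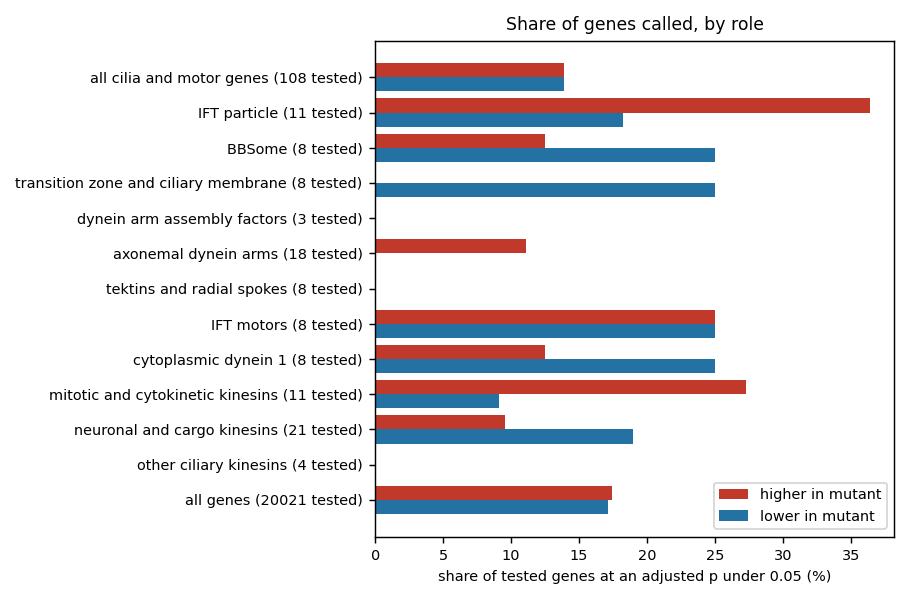
The share of tested genes called at an adjusted p under 0.05 is plotted for each role group, with the number tested in brackets and higher and lower calls drawn separately, beside the share over all genes tested. The IFT particle had the greatest share, 54.5% of 11 genes, against 34.5% of all genes tested. The share of all genes called rose with mean CPM, to 46.8% in the highest of the 5 bins. The other groups with calls ranged from 11.1% for axonemal dynein arms to 50% for IFT motors, and no gene was called in 3 of the groups.

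The IFT particle is built of an IFT-B part, needed for transport toward the tip, and an IFT-A part, needed for the return. Of its 11 genes 4 were higher and 2 lower in the mutant, or 54.5%, against 34.5% of all genes tested. The share of all genes called rose with mean CPM, from 18.4% in the lowest to 46.8% in the highest of the 5 bins. All 11 IFT genes moved by less than 1.5-fold, with a median log2 fold change of 0.11 and a range of -0.23 to 0.33. The IFT-B gene *ift81*, whose product takes part in carrying tubulin, stood at 14.8, 14.8 and 15.6 CPM in mutant libraries, against 12.5, 12.3 and 11.3 CPM in wildtype libraries. Its log2 fold change was 0.33 (SE 0.0735, edgeR adjusted p = 0.0058). *ift57*, also of IFT-B, stood at 31.2, 30.0 and 30.1 CPM in mutant libraries and at 25.2, 26.1 and 25.9 CPM in wildtype libraries. It was higher by 0.24 on the log2 scale (SE 0.0535, edgeR adjusted p = 0.0054). For both genes every mutant library lay above every wildtype library, and both calls held when any single library was left out.

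The other 4 calls in the particle did not hold in that way. *ift172*, the largest IFT-B protein, stood at 65.8, 63.3 and 63.9 CPM in mutant libraries and 59.7, 59 and 56.4 CPM in wildtype libraries, a log2 fold change of 0.14 (edgeR adjusted p = 0.034). *ift52*, of the IFT-B core, stood at 27.6, 28.7 and 27.4 CPM in mutant libraries and 22.9, 25.1 and 26.0 CPM in wildtype libraries, a log2 fold change of 0.18 (edgeR adjusted p = 0.046). The adjusted p of *ift172* ranged from 0.0531 to 0.15 and that of *ift52* from 0.0541 to 0.171 when wildtype A, B or C or mutant A or C was left out. *ift88*, whose loss stops ciliogenesis in vertebrates, stood at 17.2, 16.4 and 15.6 CPM in mutant libraries and 20.5, 18.2 and 18.4 CPM in wildtype libraries, a log2 fold change of -0.22 (edgeR adjusted p = 0.038). *ift20*, which also sorts ciliary cargo at the Golgi, stood at 15.2, 15.5 and 15.9 CPM in mutant libraries and 19.1, 17.1 and 18.2 CPM in wildtype libraries, a log2 fold change of -0.23 (edgeR adjusted p = 0.024). All 4 genes separated the genotypes, yet within IFT-B *ift88* and *ift20* lay below wildtype and *ift172* and *ift52* above it. The call of *ift88* was lost without wildtype A, B or C or mutant C or D (adjusted p 0.0505 to 0.141), and that of *ift20* without wildtype A or C or mutant A or C (0.0637 to 0.0905). The IFT-A gene *ift140* overlapped between genotypes, at 42.6, 41.1 and 38.7 CPM in mutant libraries and 37.8, 40.8 and 39.9 CPM in wildtype libraries, with a 95% interval of its log2 fold change from -0.08 to 0.17. *ift80*, of IFT-B, had a log2 fold change of 0.09 that did not pass the test (edgeR adjusted p = 0.33).

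Of the 8 genes for the motors of intraflagellar transport, 2 were higher and 2 lower, or 50%, against 34.5% of all genes tested. Dynein 2, the motor of the return journey, gave calls in opposite directions. Its light intermediate chain gene *dync2li1* stood at 9.32, 8.60 and 8.79 CPM in mutant libraries, against 6.01, 7.39 and 6.25 CPM in wildtype libraries, a log2 fold change of 0.44 (SE 0.101, edgeR adjusted p = 0.0062). The intermediate chain gene *dync2i1* stood at 5.73, 6.07 and 5.42 CPM in mutant libraries, against 7.46, 7.53 and 8.20 CPM in wildtype libraries, a log2 fold change of -0.43 (SE 0.0964, edgeR adjusted p = 0.0057). Neither gene overlapped between genotypes, and both calls held without any single library. A further entry, *WDR60*, carries an older symbol of *dync2i1* and was counted in the list of other genes. It averaged 13.22 CPM in mutant and 13.15 CPM in wildtype libraries and was not called (log2 fold change 0.008, edgeR adjusted p = 0.95). These entries were not summed, so the lower call holds for the *dync2i1* entry alone. The heavy chain gene *DYNC2H1*, which holds the motor domain, stood at 13.8, 14.5 and 14.7 CPM in mutant libraries and 13.2, 12.9 and 12.9 CPM in wildtype libraries and was not called (edgeR adjusted p = 0.14, 95% interval of the log2 fold change -0.01 to 0.29). Of the kinesin-2 genes, *kif3b* had a 95% interval from -0.12 to 0.25 and *kif17*, an accessory kinesin of sensory cilia, one from -0.76 to 0.41. The other 2 calls were the pair of entries for *kif3a*, given with the same-symbol entries.

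The BBSome is a coat-like complex that rides on IFT trains, and the chaperonin-like Bbs proteins help to assemble it. Of its 8 genes 1 was higher and 2 were lower, or 37.5%, against 34.5% of all genes tested. The median log2 fold change of the group was -0.06. *bbs2*, a core subunit, stood at 14.1, 12.8 and 12.8 CPM in mutant libraries (13.3 ± 0.766, SD), against 19.0, 19.3 and 19.1 CPM in wildtype libraries (19.1 ± 0.165, SD). Its log2 fold change of -0.53 (SE 0.0684, 95% interval -0.68 to -0.38) had the lowest adjusted p of all 108 genes, 0.00019 in the edgeR test. *bbs12*, of the chaperonin-like group, stood at 5.78, 6.01 and 6.78 CPM in mutant libraries, against 3.97, 4.30 and 4.40 CPM in wildtype libraries, a log2 fold change of 0.55 (SE 0.111, edgeR adjusted p = 0.0032). Both genes separated the genotypes, and both calls held without any single library. *bbs4*, another subunit, stood at 5.39, 5.11 and 4.33 CPM in mutant libraries and 5.63, 6.75 and 6.40 CPM in wildtype libraries, a log2 fold change of -0.34 (edgeR adjusted p = 0.047). This call was lost without wildtype B or C or mutant C or D, at adjusted p values of 0.0826 to 0.147. The core subunits *bbs1* (log2 fold change 0.27, edgeR adjusted p = 0.15), *bbs5* (95% interval -0.30 to 0.17) and *bbs7* (95% interval -0.08 to 0.19) were not called.

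Among the 8 genes of the transition zone and ciliary membrane none was higher and 2 were lower. That is 25%, against 34.5% of all genes tested. *arl13a* encodes a small GTPase related to Arl13b and showed the widest difference below wildtype among the 108 genes. It stood at 0.359, 0.458 and 0.267 CPM in mutant libraries, against 1.02, 1.25 and 0.936 CPM in wildtype libraries, from 15, 20 and 10 counts in mutant libraries and 38, 47 and 43 counts in wildtype libraries. The genotypes did not overlap, and the log2 fold change was -1.54 (SE 0.296, 95% interval -2.19 to -0.89, edgeR adjusted p = 0.0023). Its relative *arl13b*, a GTPase of the ciliary membrane that is needed for normal axonemes, stood at 32.0, 27.0 and 30.8 CPM in mutant libraries and 30.6, 30.5 and 29.7 CPM in wildtype libraries. These values overlapped, and the 95% interval of the log2 fold change ran from -0.16 to 0.13. *nphp4*, a nephrocystin of the transition zone, stood at 8.24, 7.98 and 8.87 CPM in mutant libraries, against 9.98, 11 and 10.8 CPM in wildtype libraries, a log2 fold change of -0.34 (SE 0.0847, edgeR adjusted p = 0.0097). The calls of *arl13a* and *nphp4* held without any single library. The other 5 genes of the group were not called, among them *mks1* (95% interval -0.22 to 0.04), *tctn1* (log2 fold change 0.12, edgeR adjusted p = 0.45) and *tctn2* (0.17, adjusted p = 0.09).

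Genes of the motile axoneme were mostly not called, with 11.1% called among the dynein arm genes, against 34.5% of all genes tested. Of 18 tested genes for dynein arms 2 were higher and none lower, with a median log2 fold change of 0.13, and none of 3 assembly factors, which fold the arms in the cytoplasm, and none of 8 tested tektins and radial spoke genes was called. The unadjusted edgeR p was under 0.05 for 6 of the 18 dynein arm genes, 1 of the 3 assembly factors and 1 of the 8 tektin or spoke genes. Over all genes it was under 0.05 for 8941 of the 20021 tested, so these counts are no excess. *dnal4a*, a light chain gene, stood at 17.1, 15.5 and 16.8 CPM in mutant libraries, against 12.7, 14.2 and 13.3 CPM in wildtype libraries. Every mutant library lay above every wildtype library, with a log2 fold change of 0.30 (SE 0.0746, edgeR adjusted p = 0.01), and the call held without any single library. The other call was one of the entries for *dnai1*.

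For some genes of the arms and their assembly every mutant library lay above every wildtype library, without the gene passing the test. With the called genes counted, 6 of the 18 dynein arm genes lay wholly above wildtype and 1 wholly below. Over all genes tested 24.3% lay above and 24.8% below. The outer arm heavy chain gene *dnah9* stood at 2.23, 2.22 and 2.40 CPM in mutant libraries and 1.72, 1.71 and 1.76 CPM in wildtype libraries, with a log2 fold change of 0.40 (edgeR adjusted p = 0.069), while its entry in capitals had one of -0.27 (adjusted p = 0.26). The assembly factor gene *dnaaf1* stood at 4.79, 5.46 and 5.13 CPM in mutant libraries and 4.48, 4.03 and 4.35 CPM in wildtype libraries, with a log2 fold change of 0.26 (edgeR adjusted p = 0.096). For *dnali1*, an inner arm light intermediate chain, the log2 fold change was 0.28 (edgeR adjusted p = 0.056). *DNAI1* and the spoke gene *RSPH10B* lay below wildtype in every mutant library, and neither was called. Most other genes of the arms and spokes straddled wildtype. *dnah7*, an inner arm heavy chain, stood at 7.14, 6.46 and 6.44 CPM in mutant libraries and 4.37, 7.02 and 6.55 CPM in wildtype libraries, where wildtype A alone was low. The 95% interval of the log2 fold change was -0.07 to 0.32 for *dnah5*, an outer arm heavy chain, -0.27 to 0.15 for *dnal1*, a light chain, and -0.17 to 0.37 for *rsph4a*, a radial spoke head protein. *rsph9*, of the same head, had a log2 fold change of 0.18 (edgeR adjusted p = 0.24). The tektins, filament proteins of the doublet microtubules, were measured less closely, with intervals of -0.52 to 0.53 for *tekt1*, -0.83 to 1.05 for *tekt2* and -1.08 to 0.38 for *tekt4*.

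**Figure D2:**
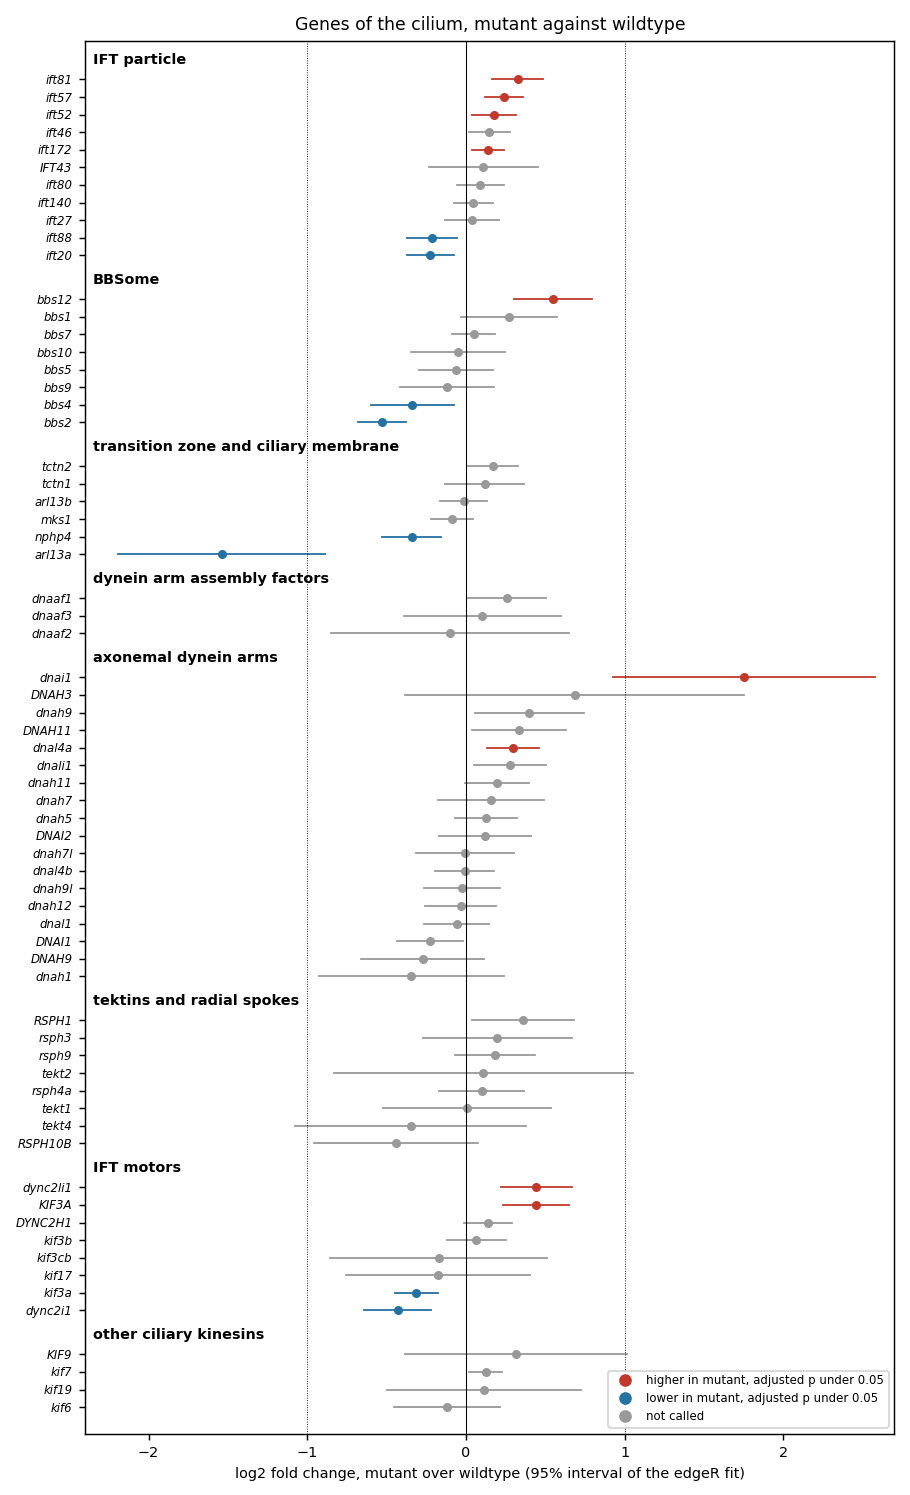
The log2 fold change of tested genes of the cilium, mutant over wildtype, is drawn as a point with its 95% interval, with genes ordered within role groups and called genes in colour. Most points lie near 0, and *dnai1* at 1.75 and *arl13a* at -1.54 stand farthest out.

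Markers of tissues that bear motile cilia were also compared, with 34.5% of all genes called as their background. Of 7 pronephric markers none was higher and 3 were lower, and they summed to 156 to 173 CPM in mutant libraries, against 195 to 204 CPM in wildtype libraries. Of 5 floor plate markers 4 were higher and *foxj1a* was lower, with sums of 171 to 186 CPM in mutant libraries, against 154 to 163 CPM in wildtype libraries. The rise was not particular to that list. Of 4 tested markers of the notochord and of descendants of the Kupffer vesicle 2 were higher and 0 lower. They summed to 563 to 751 CPM in mutant libraries, against 445 to 506 CPM in wildtype libraries. Of 6 otic vesicle markers 1 was higher and 2 were lower, with sums of 307 to 336 CPM in mutant libraries, against 342 to 348 CPM in wildtype libraries. The otic list went both ways, with *dlx3b* higher (log2 fold change 0.38) and *stm* (-0.30) and *pax2a* (-0.21), which is also a pronephric marker, lower. No marker of these lists was at 0 in every library, but this was fixed beforehand, since no gene summed to under 11 counts over the 6 libraries. TMM scaling left the summed CPM of all genes slightly higher in the mutant, at 1014000 to 1023000 against 973900 to 989000 in wildtype libraries. The part of these tissues in the levels of cilia genes was not tested.

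The gene table holds 21 of the 113 entries with symbols in capitals, and 7 pairs of entries share a symbol apart from the case. For such pairs the counting could divide reads between entries, which would make the levels of each entry uncertain. Counts that are not whole show reads that were divided, and 39 of the 108 tested entries, 9 of the 30 called ones, had counts within 0.005 of a whole number in each of the 6 libraries. Among the pairs, both entries of *dnah9*, of *dnai1* and of *dync1i1* had whole counts, which gave no sign of divided reads there.

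The 2 entries for kinesin-2 motor subunit *kif3a* were called in opposite directions. *KIF3A* stood at 10.1, 10.9 and 10.9 CPM in mutant libraries, against 7.54, 8.73 and 7.18 CPM in wildtype libraries, a log2 fold change of 0.44 (SE 0.0948, edgeR adjusted p = 0.0043). *kif3a* stood at 20.8, 20.2 and 19.4 CPM in mutant libraries, against 26.2, 24.1 and 24.6 CPM in wildtype libraries, a log2 fold change of -0.31 (SE 0.0622, edgeR adjusted p = 0.0029). Neither entry overlapped between genotypes, both calls held without any single library, and both entries had counts that were not whole. Summed, the pair stood at 30.8, 31.1 and 30.3 CPM in mutant libraries and 33.8, 32.9 and 31.8 CPM in wildtype libraries, and the log2 fold change of the sum was -0.09 (edgeR adjusted p = 0.18). A difference in the sum of these entries was thus not called, and which of them changed cannot be read from these counts.

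The 2 entries for *dnai1*, an intermediate chain of the outer dynein arm, both had whole counts. *dnai1* stood at 0.527, 0.619 and 0.454 CPM in mutant libraries, against 0.107, 0.160 and 0.196 CPM in wildtype libraries, from 22, 27 and 17 counts in mutant libraries and 4, 6 and 9 counts in wildtype libraries. The groups did not overlap, and the log2 fold change of 1.75 (SE 0.376, 95% interval 0.93 to 2.58, edgeR adjusted p = 0.0043) was the widest of the 108 genes. *DNAI1* stood at 6.37, 5.66 and 5.98 CPM in mutant libraries and 7.16, 6.91 and 7.03 CPM in wildtype libraries, with a log2 fold change of -0.23 that was not called (edgeR adjusted p = 0.083). Summed, the pair had a log2 fold change of -0.14 (edgeR adjusted p = 0.26), so that the larger entry set the level of the pair. Of the other 5 sums, only that of *kif21a* was called, with a log2 fold change of -0.36 (edgeR adjusted p = 0.011). Those of *dnah9* (0.04, adjusted p = 0.84), *dnah11* (0.25, adjusted p = 0.056), *dync1i1* (-0.25, adjusted p = 0.1) and *kif1c* (0.06, adjusted p = 0.35) were not. *DYNC1I1* lay above wildtype in every mutant library, at 17, 12 and 10 counts against 6, 8 and 4 (log2 fold change 1.06, edgeR adjusted p = 0.087). *dync1i1* lay below wildtype in every mutant library (-0.31, adjusted p = 0.062), and neither entry was called.

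**Figure D3:**
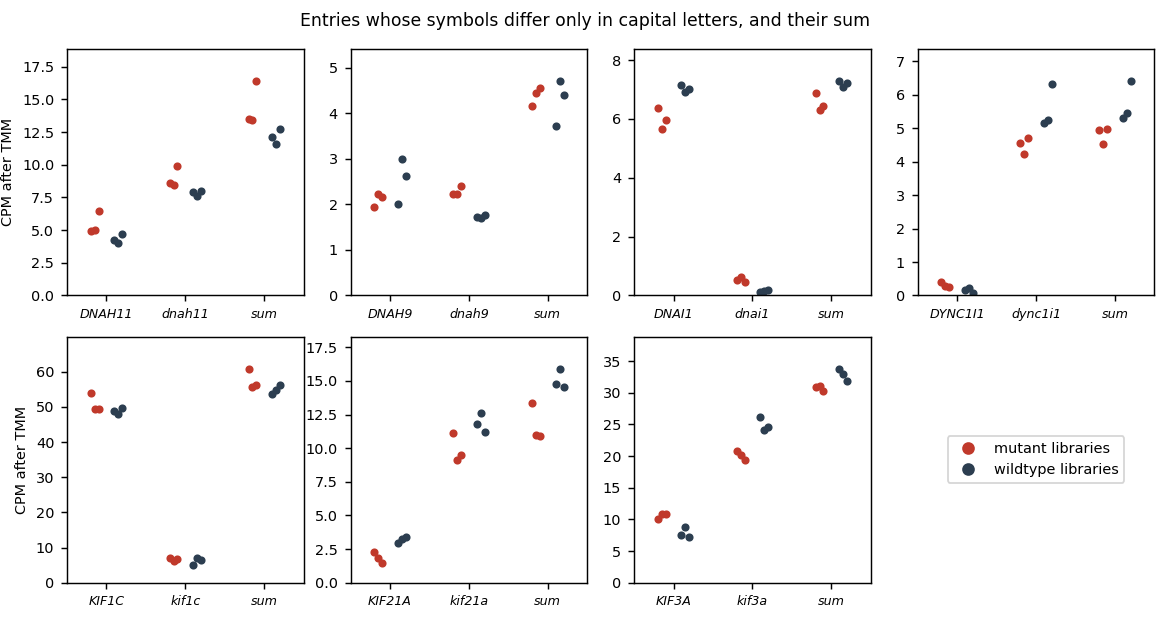
CPM after TMM scaling is plotted for each library, mutant left of wildtype, for each of the 7 pairs of entries that share a symbol, and for their sum. The entries *KIF3A* and *kif3a* lie on opposite sides of wildtype, and *dnai1* is far below *DNAI1* in both genotypes.

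Cytoplasmic dynein 1 moves cargo toward the cell centre and positions the spindle. Of its 8 genes 1 was higher and 2 were lower, or 37.5%, against 34.5% of all genes tested. The heavy chain gene *DYNC1H1*, which holds the motor domain, stood at 161, 149 and 178 CPM in mutant libraries (163 ± 14.1, SD), against 112, 106 and 132 CPM in wildtype libraries (117 ± 14.0, SD). All mutant libraries lay above all wildtype libraries, the difference was 1.39-fold, a log2 fold change of 0.48 (SE 0.0819, edgeR adjusted p = 0.0012), and the call held without any single library. The light intermediate chain gene *dync1li2*, which links the motor to its adaptors, stood at 73.0, 70.6 and 72.2 CPM in mutant libraries, against 83.6, 79.5 and 80.6 CPM in wildtype libraries. This too was without overlap, at a log2 fold change of -0.17 (SE 0.0434, edgeR adjusted p = 0.0096), and the call held without any single library. The intermediate chain gene *dync1i2b* stood at 1.37, 1.95 and 1.5 CPM in mutant libraries and 2.5, 2.32 and 2.11 CPM in wildtype libraries, a log2 fold change of -0.52 (edgeR adjusted p = 0.0499). That call was lost without wildtype A, B or C or mutant A or D, at adjusted p values of 0.0742 to 0.141. Other entries named for this chain were more abundant and not called. *DYNC1I2* averaged 81.7 CPM in mutant and 82.5 CPM in wildtype libraries (log2 fold change -0.01, edgeR adjusted p = 0.84). *dync1i2a* averaged 45.0 and 44.2 CPM (0.03, adjusted p = 0.71). These entries were not summed, so the lower call holds for the *dync1i2b* entry alone.

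**Figure D4:**
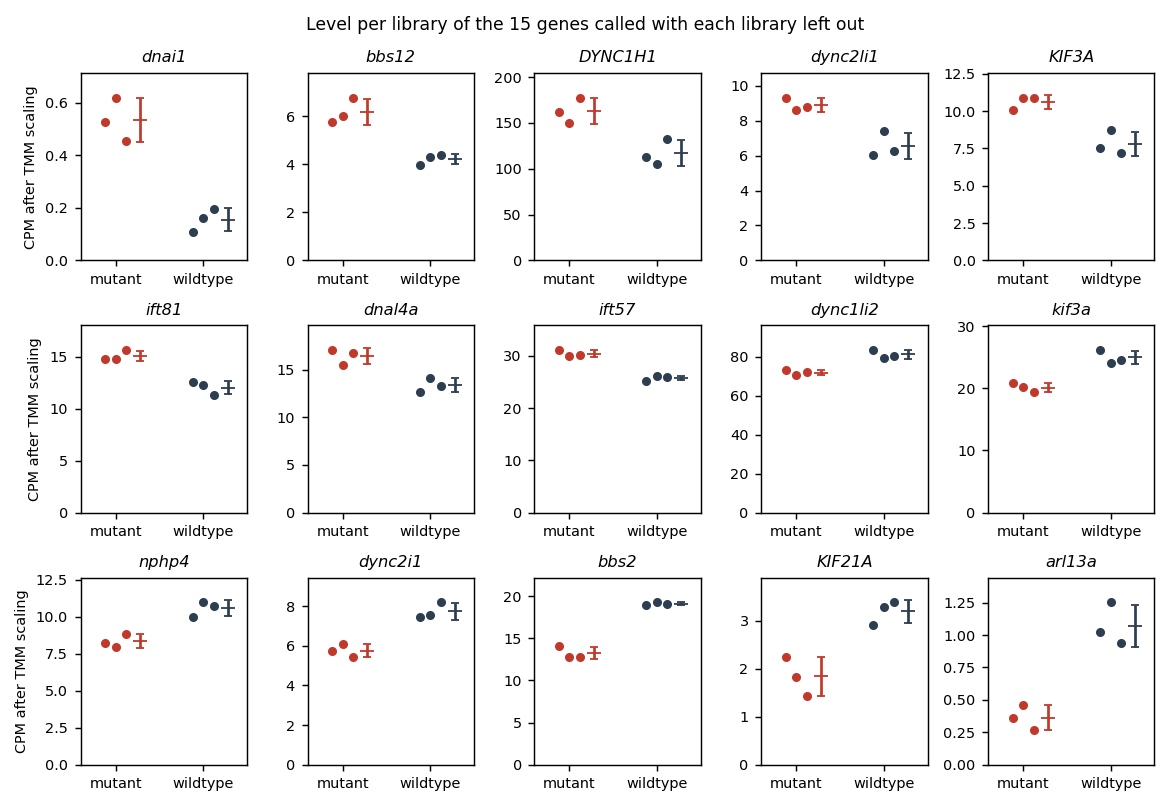
CPM after TMM scaling is plotted for each library, mutant left of wildtype, with the mean and SD (n = 3) beside the points, for the 15 genes called with every single library left out in turn. In each panel the mutant points lie on one side of the wildtype points, as for *bbs2* at 12.8 to 14.1 CPM in mutant libraries and 19.0 to 19.3 CPM in wildtype libraries.

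The kinesins of mitosis and cytokinesis were all abundant, each at over 50 CPM, and moved by under 1.5-fold. Of 11 genes 3 were higher and 1 was lower, or 36.4%, against 34.5% of all genes tested. Their log2 fold changes lay between -0.16 and 0.15. *kif22*, which pushes chromosome arms outward, stood at 163, 158 and 159 CPM in mutant libraries, against 139, 152 and 142 CPM in wildtype libraries, a log2 fold change of 0.15 (edgeR adjusted p = 0.024). *kif2c*, which depolymerizes microtubules at centromeres, stood at 133, 140.1 and 144 CPM in mutant libraries, against 128, 125 and 124 CPM in wildtype libraries, a log2 fold change of 0.15 (edgeR adjusted p = 0.024). *kif15*, a spindle motor, stood at 140.4, 141 and 141 CPM in mutant libraries, against 126, 129.9 and 133 CPM in wildtype libraries, a log2 fold change of 0.12 (edgeR adjusted p = 0.041). These 3 genes were above wildtype in every mutant library. *KIF20B*, a kinesin of cytokinesis, was below wildtype in every mutant library, at 59.6, 59.9 and 60.7 CPM, against 69.6, 63.1 and 67.9 CPM in wildtype libraries, a log2 fold change of -0.16 (edgeR adjusted p = 0.03). An entry of similar symbol, *kif20ba*, averaged 57.6 CPM in mutant and 61.1 CPM in wildtype libraries and was not called (log2 fold change -0.08, edgeR adjusted p = 0.18). It was not summed with *KIF20B*, so the lower call holds for the *KIF20B* entry alone.

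None of the 4 mitotic calls held without every single library. The highest adjusted p was 0.0984 for *kif22* and 0.107 for *KIF20B*, both lost without wildtype A or C or mutant A or C, 0.0967 for *kif2c*, lost without wildtype B or C or mutant C, and 0.14 for *kif15*, lost without wildtype A, B or C or mutant A or C. *kif11*, which drives the spindle poles apart, stood at 425, 414 and 407 CPM in mutant libraries and 387, 401 and 399.7 CPM in wildtype libraries, with a 95% interval of -0.02 to 0.15. *kif23*, of the cytokinetic midbody, had an interval of -0.03 to 0.16. Of 17 other genes of proliferating cells 2 were higher and 4 lower. That is 35.3%, against 34.5% of all genes tested and 46.8% of those in the highest of the 5 bins by mean CPM. The 17 genes summed to 4153 to 4329 CPM in mutant libraries and 4221 to 4277 CPM in wildtype libraries, which overlapped.

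The neuronal and cargo kinesins were grouped by symbol, and not every gene of the group, such as *KIF2A* and the *kif26* genes, is a cargo carrier. Of its 21 tested genes 2 were higher and 4 lower, or 28.6%, against 34.5% of all genes tested. The median log2 fold change of the group was -0.08. *KIF21A*, a kinesin that restrains microtubule growth, stood at 2.25, 1.83 and 1.44 CPM in mutant libraries, against 2.92, 3.28 and 3.39 CPM in wildtype libraries, a log2 fold change of -0.79 (SE 0.177, edgeR adjusted p = 0.0055). Its entry in lower case, *kif21a*, stood at 11.1, 9.10 and 9.48 CPM in mutant libraries and 11.8, 12.6 and 11.2 CPM in wildtype libraries, with a log2 fold change of -0.26 (edgeR adjusted p = 0.054). Both entries lay below wildtype in every mutant library, as did their sum. *kif5c*, a neuronal kinesin-1 heavy chain, stood at 4.96, 4.61 and 3.82 CPM in mutant libraries, against 6.28, 5.74 and 5.85 CPM in wildtype libraries, a log2 fold change of -0.41 (SE 0.120, edgeR adjusted p = 0.021). *kif1aa*, of the family that carries synaptic vesicle precursors, stood at 7.98, 7.70 and 8.36 CPM in mutant libraries, against 11, 8.70 and 9.75 CPM in wildtype libraries, a log2 fold change of -0.29 (edgeR adjusted p = 0.04). The last lower gene, *kif26aa*, had a log2 fold change of -0.29 (edgeR adjusted p = 0.048). None of the 4 overlapped between genotypes. The call of *KIF21A* held without any single library, whereas that of *kif5c* was lost without wildtype A or C (adjusted p up to 0.0726), and those of *kif1aa* and *kif26aa* were lost without wildtype A or C or mutant A or C (adjusted p up to 0.156 and 0.184).

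The 2 higher genes of the neuronal and cargo group were called by a narrow margin. *kif5ba*, a kinesin-1 heavy chain of wide expression, stood at 218, 222 and 230.2 CPM in mutant libraries, against 209, 207 and 204 CPM in wildtype libraries, a log2 fold change of 0.11 (edgeR adjusted p = 0.048) that was lost without any of the 6 libraries in turn (adjusted p 0.052 to 0.166). *kif26bb* stood at 1.49, 1.60 and 1.52 CPM in mutant libraries, against 1.26, 0.881 and 0.588 CPM in wildtype libraries, a log2 fold change of 0.77 (SE 0.266, edgeR adjusted p = 0.042). It stood at a log2 fold change of 1.08 and was called without wildtype A, and its call was lost without any other library (adjusted p 0.0502 to 0.16). *kif1b*, a carrier of mitochondria and synaptic vesicle precursors, had a 95% interval of -0.18 to 0.02, and *kif5aa*, a neuronal kinesin-1, stood at 9.61, 10.1 and 6.86 CPM in mutant libraries and 9.87, 9.66 and 10.1 CPM in wildtype libraries, where mutant D alone was low. Of 15 tested markers of neurons 2 were higher and 4 lower, or 40%, against 34.5% of all genes tested. The markers summed to 563.9 to 589 CPM in mutant libraries, against 640.6 to 665.5 CPM in wildtype libraries. The log2 fold change was below 0 for 12 of them and above 0 for 3. Much of the sum was *tubb5*, which was called lower and averaged 193 CPM in mutant and 248 CPM in wildtype libraries. *elavl3* averaged 188 and 195 CPM and was not called (edgeR adjusted p = 0.32). The part of neurons in the levels of these kinesins was not tested. The 4 kinesins that act in cilia without driving transport gave no call. Among them *kif7*, which organizes the ciliary tip for Hedgehog signaling, stood above wildtype in every mutant library, at 56.8, 58.9 and 60.8 CPM against 54.1, 54.8 and 53.0 CPM in wildtype libraries (log2 fold change 0.12, edgeR adjusted p = 0.059).

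**Figure D5:**
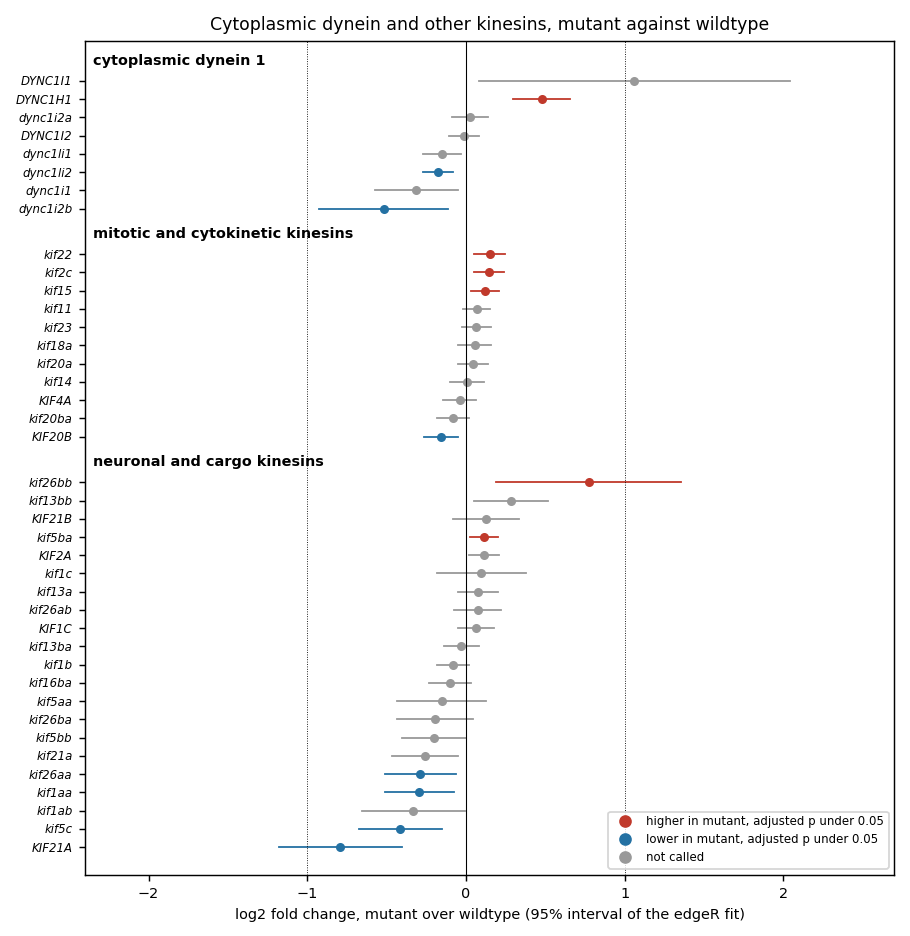
The log2 fold change of the tested motors of the cell body and spindle, mutant over wildtype, is drawn as a point with its 95% interval, ordered within role groups, with called genes in colour. The mitotic kinesins lie between -0.16 and 0.15, and the neuronal and cargo group spreads from -0.79 to 0.77. Cytoplasmic dynein 1 spreads from -0.52 to 1.06, the value of *DYNC1I1*, which was not called.

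A list of other genes of the same structures, whose symbols the name rule does not take in, held 92 tested genes. Of these 15 were higher and 12 lower, or 29.3%, against 34.5% of all genes tested. The median log2 fold change of the list was -0.01. Its 13 tested further genes grouped with IFT and the BBSome, not all of them subunits, gave 2 higher and 2 lower genes, or 30.8%. The ciliogenic transcription factors gave 2 higher and 2 lower genes of 9, or 44.4%. *foxj1a*, the master regulator of motile ciliogenesis, stood at 39.1, 35.6 and 33.5 CPM in mutant libraries, against 42.6, 45.6 and 42.0 CPM in wildtype libraries, a log2 fold change of -0.27 (edgeR adjusted p = 0.0084). *rfx1b*, of the RFX family that controls core cilia genes, stood at 87.0, 90.4 and 90.7 CPM in mutant libraries, against 66.1, 73.4 and 65.0 CPM in wildtype libraries, a log2 fold change of 0.39 (edgeR adjusted p = 0.00027). Both separated the genotypes, and within the RFX family *rfx3* was higher (log2 fold change 0.23, adjusted p = 0.019), *rfx4* was lower (-0.19, adjusted p = 0.0056) and *rfx2* was not called (0.04, adjusted p = 0.55).

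The widest differences in this list were those of 2 genes at the base of the cilium. Of 17 further transition zone and centriole genes 6 were higher and 1 was lower, or 41.2%. Over all genes tested 17.4% were higher and 17.1% lower, 34.5% in all. *tmem17*, a transmembrane protein of the transition zone, stood at 2.42, 1.88 and 1.76 CPM in mutant libraries, against 5.82, 5.31 and 5.57 CPM in wildtype libraries, a log2 fold change of -1.46 (SE 0.143, edgeR adjusted p = 3e-05). *nek8*, a kinase of the inversin compartment just above the transition zone, stood at 9.15, 8.78 and 7.88 CPM in mutant libraries, against 4.51, 3.28 and 4.53 CPM in wildtype libraries, a log2 fold change of 1.06 (SE 0.130, edgeR adjusted p = 0.00013). Its partner there, *invs*, was higher by 0.50 on the log2 scale (edgeR adjusted p = 0.0019). These were the only genes of the list past a fold of 2, *nek8* above and *tmem17* below wildtype. Of 32 tested further genes of motile cilia 1 was higher and 4 were lower, or 15.6%, which is under the 34.5% of all genes tested. The higher gene was *spag1a* (log2 fold change 0.36, edgeR adjusted p = 0.00079). Among the lower ones was *zmynd10*, a dynein arm assembly factor (log2 fold change -0.59, edgeR adjusted p = 0.021). Of 21 further genes of dynein, dynactin and kinesin complexes 4 were higher and 3 lower, or 33.3%, against 34.5% of all genes tested. Among the lower ones *ndel1b*, a dynein regulator, stood at 18.4, 18.4 and 16.4 CPM in mutant libraries, against 31.7, 32.1 and 30.0 CPM in wildtype libraries (log2 fold change -0.82, edgeR adjusted p = 7.3e-06).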

How the data were processed

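Reads had been mapped to the DanRer7 transcriptome by the authors, ribosomal RNA had been removed, and the authors deposited expected counts per gene. The submitters' processing notes name FastQC, RSEM 1.2.28 and DESeq2, and list GRCz10 beside DanRer7. Deposited columns of the authors' own DESeq2 comparison (mean, log2 fold change, fold change, SE, statistic and p-values) were not used. The table holds 0 further columns of per-sample values. Count columns carry a genotype and a letter and were assigned to a genotype only.

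Expected counts were rounded to whole numbers. No gene had a sum under 11 over the 6 libraries. Genes were filtered with filterByExpr (20021 of 23150 kept), scaled by TMM and tested with edgeR 4.0.16 (glmQLFit, glmQLFTest) in R 4.3.3, with Benjamini-Hochberg adjustment over all genes kept. A call is an adjusted p under 0.05. The SE is the size of the log2 fold change divided by the square root of F. An exact permutation test of 3 against 3 libraries cannot go below a p of 0.1. The procedure was tested on simulated data. The genes, role groups and lists were chosen with earlier results of these data known. Named genes were a core set for each role, every called gene past a fold of 2, and up to 3 called genes of largest fold in each direction per role group. Some of the named genes are not reported here. Other names complete a count and were chosen after their values were seen. Of the 113 symbols, 110 matched a zebrafish gene table.

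Alternatives were DESeq2 1.42.0 size factors and its Wald test, upper-quartile scaling, limma 3.58.1 voom, other filters and thresholds, leaving out each library, and, chosen after seeing the data, summing entries of the same symbol.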

Additional observations from a re-analysis of the deposited data

How the results depend on the processing

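No paired analysis was possible because the count columns carry letters rather than the replicate numbers of the labels, so the planned replicate block was not run. Leaving out each library gave 8 to 14 higher genes, with 8 without wildtype C or mutant C, and 7 to 13 lower genes, with 7 without wildtype C, 8 without wildtype A and 9 without mutant C. DESeq2's Wald test gave 10 higher and 9 lower, and an adjusted p under 0.01 gave 7 higher and 7 lower. Past a fold of 2 there were 0 genes with a filter of over 1 CPM, which removes *arl13a* and *dnai1*, 4 at a fold of 1.5 in place of 2, and 2 to 3 with each library left out. Of the 30 calls, 15 held in every leave-one-out fit and 13 under all 12 settings. *arl13a* and *dnai1* are not among the 13 only because the filter of over 1 CPM removed them. The 12 settings leave out the changed thresholds and the summing of same-symbol entries. *KIF3A* and *kif3a* are thus among the 13, although their sum was not called (edgeR adjusted p = 0.18). Medians of log2 fold changes ranged over the leave-one-out fits from 0.0193 to 0.0526 for all genes of the set, 0.0283 to 0.14 for the IFT particle, -0.11 (without wildtype A) to -0.0121 (without wildtype B) for the BBSome, -0.0857 to -0.0074 for the transition zone, -0.0161 to 0.21 for assembly factors, 0.0343 to 0.15 for dynein arms, 0.0507 to 0.21 for tektins and spokes, -0.13 to 0.05 for IFT motors, -0.11 to -0.0593 for cytoplasmic dynein 1, 0.0388 to 0.0749 for mitotic kinesins, -0.10 to -0.051 for cargo kinesins, and 0.0632 to 0.16 for other ciliary kinesins. The 1 CPM filter, with fewer genes, gave 0.10 for IFT motors, -0.15 for cytoplasmic dynein 1 and 0.00072 for other ciliary kinesins. Among the genes named, log2 fold changes near 0 that were not called turned sign for *bbs5* (0.0108 without wildtype B, leave-one-out range from -0.12), *arl13b* (0.057 without mutant C, from -0.0639), *dnah7* (-0.0226 without wildtype A, up to 0.28), *dnal1* (0.0135 without mutant D, from -0.17), *tekt1* (-0.0047 with upper-quartile scaling, -0.22 to 0.20 without single libraries) and *tekt2* (-0.32 to 0.42). With same-symbol entries summed, *DNAH9* turned to 0.0372, *DYNC1I1* to -0.25, *dnai1* to -0.14 and *KIF3A* to -0.0946.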

Other observations

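Of the 113 genes 5 did not pass the filter on low counts. The intermediate chain gene *dnai2a* held 5, 0 and 1 counts in mutant libraries and 3, 1 and 1 counts in wildtype libraries, and *tekt3* held 1, 4 and 2 counts in mutant libraries and 0, 3 and 6 counts in wildtype libraries. The kinesin genes *kif16bb*, *kif5ab* and *KIF25* held 0 to 10 counts in mutant libraries and 3 to 14 counts in wildtype libraries. *KIF25* was at 8, 8 and 6 counts in mutant libraries and 14, 9 and 14 counts in wildtype libraries, without overlap. In an edgeR fit without the filter on low counts none of the 5 was called, with *KIF25* at a log2 fold change of -0.77 (adjusted p = 0.225) and the other 4 at adjusted p values of 0.66 to 0.942.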
